A study of Mus musculus with 10 samples.

Results

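The acetylation-dominant peaks of mouse retina in high glucose were 1000 chromatin regions with far more H3K27Ac than H3K18La signal. They were taken from 41515 autosomal candidates with a mean H3K27Ac signal of at least 3 RPKM at 25 mM glucose, out of 108253 peaks in all, as the 1000 with the lowest log2 ratio of H3K18La to H3K27Ac at 25 mM, after 0.5 RPKM was added to each mean. RPKM is the number of reads per kilobase of peak, scaled to the total reads of the library. Promoters made up 875 of the 1000 members, or 87.5%, against 28.1% of the candidates and 15.8% of all peaks. The other members were 50 intronic, 28 exonic, 29 in 3' UTRs, 2 in 5' UTRs and 16 intergenic peaks. Respiratory chain and spliceosome genes, which every cell uses, held members at 15 of 56 and 8 of 35 of their promoters among the candidates, where 862 of 10116 genes with a promoter candidate, or 8.52%, did.

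H3K27Ac is acetylation of lysine 27 on histone H3, a mark laid down by p300 and CBP at active promoters and enhancers. H3K18La is lactylation of lysine 18 on the same histone, a modification derived from lactate that is also found at active promoters and enhancers, and the retina is a tissue known for producing much lactate by aerobic glycolysis. The paper reports that H3K18La peaks often overlapped H3K27Ac at promoters, and much less often in gene bodies and enhancers. The peaks described here are the extreme in which acetylation was high and lactylation was low. Retinas of wild-type C57Bl/6J mice at postnatal day 28, freed of the pigment epithelium, were kept as explants for 48 hours in Neurobasal-A medium with 5 mM or 25 mM glucose. CUT&Tag, in which an antibody directs a transposase to the marked chromatin, was run on 500000 dissociated cells per assay. The mark of a library is the one in its title. The protocol text of the samples names antibodies to H3K18La and H3K9me3 and a pA-MNase, whereas the methods of the study name antibodies to H3K18La and H3K27Ac and a pA-Tn5 transposase. There were 3 H3K18La libraries and 2 H3K27Ac libraries at each glucose level, all labelled as batch 1. The labels do not say which libraries came from which animals, so p-values measure only the spread between these libraries, which may be technical.

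Library totals used for RPKM were 1358008 to 7424470 reads. Reads in peaks made up 11.8% to 12.01% of them for H3K18La at 5 mM glucose and 31.2% to 35.0% at 25 mM. For H3K27Ac the shares were 21.1% and 31.5% at 5 mM, and 69.5% and 56.5% at 25 mM. A comparison of the marks therefore depends on whether libraries are scaled to all reads or to reads in peaks. Values are on the scale of all reads unless stated, and the count of calls and the median at 5 mM are also given on the scale of reads in peaks. The tissue label was checked on H3K27Ac at promoters at 25 mM, where the median was 41.3 RPKM for 23 rod genes and 8.70 RPKM over all genes with a promoter peak, and 1 of 19 microglial genes had a promoter peak. The cone, bipolar, Müller glia, amacrine, ganglion and horizontal cell lists had medians of 1.87 to 6.98 RPKM, under that of all genes, and 8 of 19 endothelial and 6 of 13 pigment epithelium genes had a promoter peak. Whole retina holds several cell types, and a low mark in most cells cannot be told apart from a mark carried by few cells.

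The sequences below come from the GRCm38 plus strand and show what such regions look like. They are the stretches outside annotated exons within the central 300 bases of the first 4 promoter members in order of the ratio at 25 mM whose stretch was long enough to print, namely Rnf121 (chr7:102065166-102065266), Dot1l (chr10:80754961-80755100), Tbce (chr13:14039651-14039817) and Sgta (chr10:81060272-81060382), and, chosen for length in the same way, of 1 promoter with a very large acetylation excess at 5 mM, Zfp932 (chr5:109996399-109996501), and of 1 intronic member with a very large excess, Slmap (chr14:26491302-26491601). Capitals mark short motifs on either strand: the ETS core CCGGAA, the GC box GGGCGG and the CCAAT box.
Rnf121: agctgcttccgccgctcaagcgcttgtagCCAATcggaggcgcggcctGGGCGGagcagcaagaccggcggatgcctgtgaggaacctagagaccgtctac
Dot1l: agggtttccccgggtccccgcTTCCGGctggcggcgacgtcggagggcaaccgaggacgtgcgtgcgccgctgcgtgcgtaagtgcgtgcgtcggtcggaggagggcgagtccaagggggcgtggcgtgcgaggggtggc
Tbce: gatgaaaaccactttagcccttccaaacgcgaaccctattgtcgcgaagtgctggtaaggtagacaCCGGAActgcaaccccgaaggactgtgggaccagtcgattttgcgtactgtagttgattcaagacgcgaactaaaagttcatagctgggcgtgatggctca
Sgta: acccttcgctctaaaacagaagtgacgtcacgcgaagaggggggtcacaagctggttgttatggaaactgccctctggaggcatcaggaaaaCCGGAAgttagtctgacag
Zfp932: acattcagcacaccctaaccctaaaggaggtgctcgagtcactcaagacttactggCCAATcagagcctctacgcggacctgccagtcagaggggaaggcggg
Slmap: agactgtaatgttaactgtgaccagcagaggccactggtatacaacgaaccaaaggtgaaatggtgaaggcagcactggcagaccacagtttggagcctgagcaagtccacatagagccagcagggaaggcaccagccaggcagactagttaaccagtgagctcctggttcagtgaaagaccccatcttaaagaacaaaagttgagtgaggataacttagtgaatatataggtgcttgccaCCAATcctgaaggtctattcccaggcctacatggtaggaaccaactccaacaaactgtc
Dot1l, Tbce and Sgta each held 1 ETS core, Rnf121 a GC box and a CCAAT box. Dot1l had 22 CpG dinucleotides in 140 bases, and the intron of Slmap 1 CpG in 300 bases. For contrast, the promoter with the highest ratio of H3K18La to H3K27Ac at 25 mM among peaks with at least 3 RPKM of H3K18La was that of the predicted gene Gm49468 (central bases chr15:86989703-86990002), chosen after its values were seen.
Gm49468: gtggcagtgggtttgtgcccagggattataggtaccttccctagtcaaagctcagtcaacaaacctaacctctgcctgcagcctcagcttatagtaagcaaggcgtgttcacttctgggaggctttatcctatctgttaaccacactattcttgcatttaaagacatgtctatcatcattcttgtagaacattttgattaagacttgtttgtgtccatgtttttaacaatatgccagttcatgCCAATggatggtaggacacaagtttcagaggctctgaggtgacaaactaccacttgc
It held 1 CpG in 300 bases and a GC content of 43.0%, against 48.3% in the Slmap stretch and 50.3% to 74.3% in the promoter stretches. Its peak had 13.8 ± 1.82 RPKM of H3K18La (SD, n = 3) and 1.89 ± 0.574 RPKM of H3K27Ac (SD, n = 2) at 25 mM.

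The values that chose the members are those at 25 mM, and they are given as a description with no test. Over the 1000 members the median was 1.31 RPKM for H3K18La and 18.6 RPKM for H3K27Ac. The 10789 promoter candidates that were not members had medians of 2.58 and 11.9 RPKM. The members therefore combined lower lactylation with higher acetylation than other promoters. Their log2 ratio ran from -5.04 to -3.14 with a median of -3.35, a 10.2-fold excess of H3K27Ac, while the median candidate had a 2.14-fold excess. Both excesses would be smaller on the scale of reads in peaks, since a larger share of the H3K27Ac reads lay in peaks. On that scale the rule kept 958 of the 1000 members. The rule's limit fell in a continuous range. The last 3 members, the promoters of Eif2b5, Cbll1 and Dis3l2, had ratios of -3.1425, -3.1422 and -3.1421, and the first 3 candidates outside, Tmed4, Utp20 and Stk11ip, had -3.1419, -3.1415 and -3.1406.

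**Figure D1:**
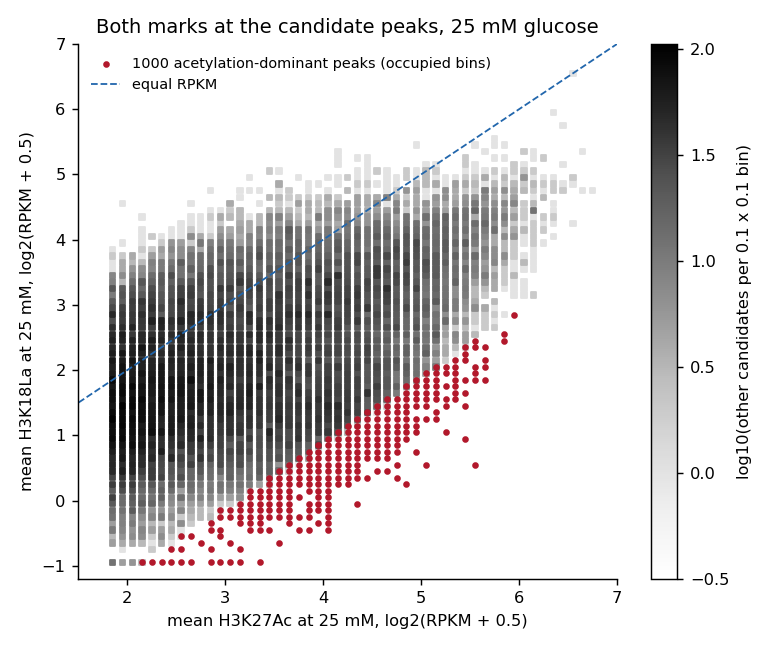
Mean H3K18La against mean H3K27Ac at 25 mM, both as log2(RPKM + 0.5), for the 41515 candidate peaks. Grey squares are bins of candidates that were not members, red points are bins that hold members, and the dashed line marks equal RPKM. The members form the lower edge of the cloud, with ratios of -3.14 or less.

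Read numbers at single members were small for lactylation. A member held a median of 11 reads over the 3 H3K18La libraries at 25 mM together and 263 reads over both H3K27Ac libraries, and 486 members had 10 or fewer H3K18La reads. The other promoter candidates had a median of 26 H3K18La reads. At 23 members, 6 of them promoters, all 3 H3K18La libraries had 0 reads, and a count of 0 allows up to 3 reads. Intervals and floors of this kind cover counting error only. The order of single members by ratio was accordingly uncertain: with the 1000 lowest ratios chosen from replicate 1 of each mark alone, the median ratio was -3.92 in those libraries and -2.59 in replicate 2, where the median candidate had -1.08 and 987 of the 1000 were below 0. Chosen in replicate 2 and read in replicate 1, the medians were -3.57 and -2.67, and 992 were below 0.

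Among the members with the lowest ratios, Rnf121, which encodes a RING-type ubiquitin ligase of the endoplasmic reticulum and Golgi, came first. Its promoter peak (chr7:102065110-102065499) had 1.30, 0.631 and 0.865 RPKM in the H3K18La libraries at 25 mM, which was 1 read in each. H3K27Ac had 54.9 and 38.7 RPKM there, or 154 and 112 reads. At 5 mM, the H3K18La libraries had 1.22, 1.98 and 1.89 RPKM and the H3K27Ac libraries 10.7 and 13.2 RPKM, so that the marks did not overlap at either glucose level. The peak lies over start sites on both strands, that of Rnf121 and those of Xndc1 and Xntrpc. Ptdss1, which encodes an enzyme of phosphatidylserine synthesis, had a deeper peak (chr13:66932534-66933762) with 5 H3K18La reads in each library at 25 mM, or 2.07, 1.00 and 1.37 RPKM, and 453 and 319 H3K27Ac reads, or 51.2 and 35.0 RPKM. It also holds a start site on the other strand, that of Mterf3. Sgta, encoding a co-chaperone, had 0 H3K18La reads in the 3 libraries at 25 mM and 57 and 25 reads of H3K27Ac, an H3K27Ac level at least 16.9-fold higher than the 0.571 RPKM that 3 reads over the group allow.

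The remaining members with the lowest ratios were 7 promoters and 2 peaks elsewhere. The promoters belonged to Dot1l, the H3K79 methyltransferase, Chd8, a chromatin remodeller, Mlst8, a subunit of both mTOR complexes, Eif3d, a translation initiation factor, Tbce, a tubulin folding cofactor, Mrpl20, a mitochondrial ribosomal protein, and Snapc4, a subunit of the complex that drives small nuclear RNA genes. Their ratios ran from -4.66 for Dot1l to -4.32 for Snapc4. The others were an intronic peak in Cars, the cysteinyl-tRNA synthetase, with a ratio of -4.50, and a peak annotated to the 3' UTR of the splicing factor gene U2af2, with a ratio of -4.32. Although annotated to U2af2, that peak (chr7:5079838-5080133) lies within 500 bp of the GENCODE start site of Epn1.

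Most genes carried a single member, 936 of 967, while 30 carried 2 and Dot1l carried 4. The 4 Dot1l peaks were spread over the gene, at chr10:80754961-80755249 over its start site, chr10:80757340-80759727 and chr10:80773982-80774954 in introns, and chr10:80791274-80793567, annotated as a promoter of a shorter transcript. Their H3K27Ac at 25 mM was 29.1, 16.8, 11.5 and 8.46 RPKM, and their H3K18La 0.673, 1.40, 0.464 and 0.425 RPKM. Acetylation was lower with each step along the gene, while lactylation stayed at or under 1.40 RPKM at all 4. Akt1s1, Anks1, Ap2m1 and Armc9 were the next in alphabetical order among the genes with 2 members.

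The values at 5 mM were not used by the rule, and there the difference between the marks was tested. H3K27Ac was higher than H3K18La at 787 of 1000 members and H3K18La was higher at 0 (limma with robust moderation on log2(RPKM + 0.5), adjusted p under 0.05 over all peaks). Over all 108253 peaks 11.4% were called with H3K27Ac higher and 0.0767% with H3K18La higher, and of all promoter peaks 35.5% were called with H3K27Ac higher. Of the other promoter candidates, the peaks most like the members, 48.4% were called. The median difference was 2.29 on the log2 scale over the members, 1.71 over the other promoter candidates, 1.29 over all candidates and 0.54 over all peaks. A difference above 0 was found at 999 members, against 97.8% of the other promoter candidates and 73.3% of all peaks. Both H3K27Ac libraries were above all 3 H3K18La libraries at 970 members, where 85.5% of the other promoter candidates, 65.8% of all candidates and 35.1% of all peaks had that order. H3K27Ac above H3K18La at 5 mM was thus common to promoter candidates in general. Of the 12 members with the lowest ratios 9 were called, and Cars, Eif3d and Sgta had limma adjusted p-values of 0.0978, 0.0876 and 0.0820 with differences of 2.03, 1.75 and 1.95. At an unadjusted p under 0.05, 960 members had H3K27Ac higher and 0 had H3K18La higher, against 74.9% of the other promoter candidates and 24% of all peaks with H3K27Ac higher. When the test was fitted on the candidates alone, 913 members were called, against 42.8% of the candidates.

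The count of calls depended on how the libraries were scaled and on single libraries. It was 0 when each library was scaled to its reads in peaks, 0 when a trend with GC content was removed and 0 under moderation without robust weights, with 626, 535 and 934 members at an unadjusted p under 0.05 and H3K27Ac higher. The shares of the other promoter candidates at that threshold were 32.2%, 24.9% and 72.2% in these fits, and those of all peaks 7.63%, 10.3% and 22.8%. The median over members was 1.49 after scaling to reads in peaks, where that of all peaks was -0.06, and 1.27 after the GC trend was removed, where that of all peaks was also -0.06. With voom on the recovered reads and reads in peaks as library size, 569 members were called, against 31.3% of the other promoter candidates and 6.03% of all peaks. Leaving out H3K18La replicate 2 at 5 mM, H3K27Ac replicate 1 or H3K27Ac replicate 2 also left 0 calls, with 863, 822 and 594 members at an unadjusted p under 0.05, against 63.9%, 59.6% and 38.8% of the other promoter candidates and 22.4%, 18% and 9.99% of all peaks. Without H3K18La replicate 1 or 3 there were 749 and 806 calls, against 44% and 47.6% of the other promoter candidates and 10.1% and 11.1% of all peaks. The median over members was between 2.05 and 2.58 in these 5 fits. At the stricter threshold of 0.01 there were 0 calls, the smallest adjusted p being 0.0102.

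**Figure D2:**
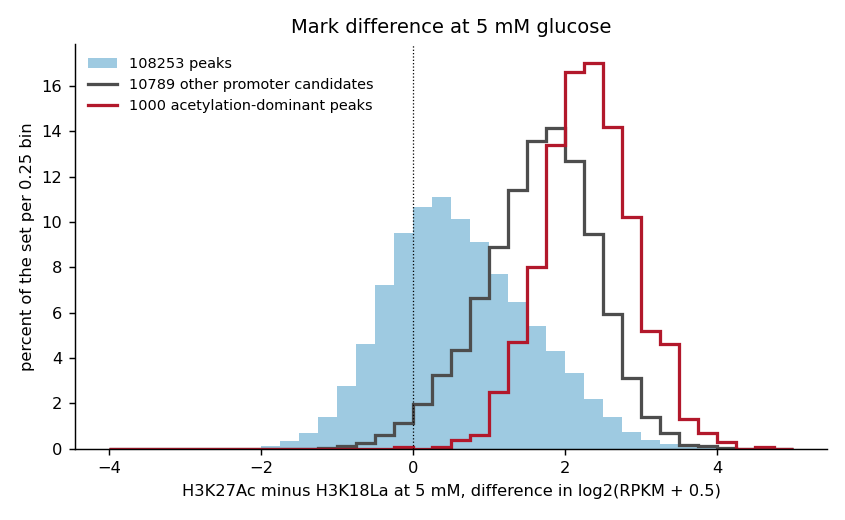
Distribution of the H3K27Ac minus H3K18La difference in log2(RPKM + 0.5) at 5 mM, as the percent of each set in bins along the x axis. The 1000 members (red, median 2.29) lie to the right of the 10789 other promoter candidates (dark grey, median 1.71) and of all 108253 peaks (blue, median 0.54).

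Members and other promoter candidates overlapped at 5 mM. Ranked among the 41515 candidates by the ratio at 5 mM, the members had a median percentile of 10.8, with 470 in the lowest 10% and 955 in the lowest 50%. The acetylation level itself was lower at 5 mM, and 921 members still had a mean H3K27Ac of at least 3 RPKM. The rule applied to the 5 mM libraries kept 177 of the 1000 members, and 55.2% of the peaks it chose were promoters.

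The largest acetylation excesses at 5 mM among called members with separated marks were found at promoters of genes of varied function. The promoter peak of Rbm12b2 (chr4:12089212-12089634), a gene for an RNA-binding protein that shares its start region with the cilium gene Tmem67, had 0 reads in all 3 H3K18La libraries at 5 mM and 10.9 and 11.0 RPKM of H3K27Ac. The difference was 4.52 ± 0.53 (SE, limma adjusted p = 0.0102). At 25 mM, H3K18La had 2.41, 0 and 2.39 RPKM and H3K27Ac 36.5 and 21.3 RPKM. Ccdc28b, a gene linked to Bardet-Biedl syndrome, followed with 0, 0.881 and 0 RPKM of H3K18La and 9.77 and 14.0 RPKM of H3K27Ac at 5 mM, a difference of 4.12 ± 0.57 (SE, limma adjusted p = 0.0102). Bet1l, a Golgi SNARE gene whose peak also covers the start of Ric8a, Akr1a1, an aldo-keto reductase gene, and Zfp932, a zinc finger gene, had differences of 4.12, 4.01 and 3.82.

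Outside promoters, 75 of 125 members were called at 5 mM and the median difference was 2.23, where 20% of the other candidates outside promoters were called and their median was 1.09. The 5 with the largest excess lay in or near Kbtbd4, Slmap, Vps26a, Elavl1 and 4930549G23Rik, with differences from 3.75 to 3.42. The intronic Vps26a peak (chr10:62477145-62477668), in a gene of the retromer complex, had 0, 1.10 and 0 RPKM of H3K18La at 5 mM and 7.94 and 10.4 RPKM of H3K27Ac. Its difference was 3.70 ± 0.60 (SE, limma adjusted p = 0.0102). The Elavl1 peak lies in an intron of the gene for the RNA-stabilising protein HuR. At the intronic Slmap peak, whose sequence is printed above, 5 reads in 1 library gave H3K18La values of 0, 3.09 and 0 RPKM, with 9.64 and 15.5 RPKM of H3K27Ac.

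The members outside promoters were a different kind of region from the promoter members. Their median width was 566 bp against 1017 bp, their GC content 52.3% against 62.7%, and their observed to expected CpG ratio 0.24 against 0.83 in the central 300 bases. A GENCODE gene start lay within 500 bp of 4 of the 125. The middle 50% of them had 0.271 to 1.40 RPKM of H3K18La at 25 mM and 8.46 to 20.2 RPKM of H3K27Ac, against 0.893 to 1.93 and 14.7 to 25.2 RPKM at the promoter members. In these narrow peaks the H3K18La counts were lower still, with a median of 1 or 2 reads in a library at 25 mM.

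The change with glucose is described without a test, because the 25 mM values chose the members and high H3K27Ac with low H3K18La at 25 mM favours some directions. H3K27Ac was higher at 25 mM than at 5 mM at all 1000 members, as at 99.8% of the other promoter candidates and 77.4% of all peaks, by a median of 1.61 on the log2 scale, where the median of the other promoter candidates was 1.337. Both H3K27Ac libraries at 25 mM were above both at 5 mM at 987 members, as in 53% of all peaks and 95.3% of the other promoter candidates. H3K18La was higher at 25 mM at 745 members, against 95.9% of the other promoter candidates and 80.8% of all peaks, by a median of 0.41 over all members, against a median of 1.07 over the other promoter candidates. All 3 libraries at 25 mM were above all 3 at 5 mM at 174 members, against 36.6% of all peaks and 57.5% of the other promoter candidates. At the members outside promoters the median H3K18La change was -0.11. Of the reads in peaks, the members held 0.717% to 0.837% for H3K18La at 5 mM and 0.386% to 0.530% at 25 mM. For H3K27Ac they held 2.41% and 2.37% at 5 mM, and 3.44% and 2.97% at 25 mM.

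**Figure D3:**
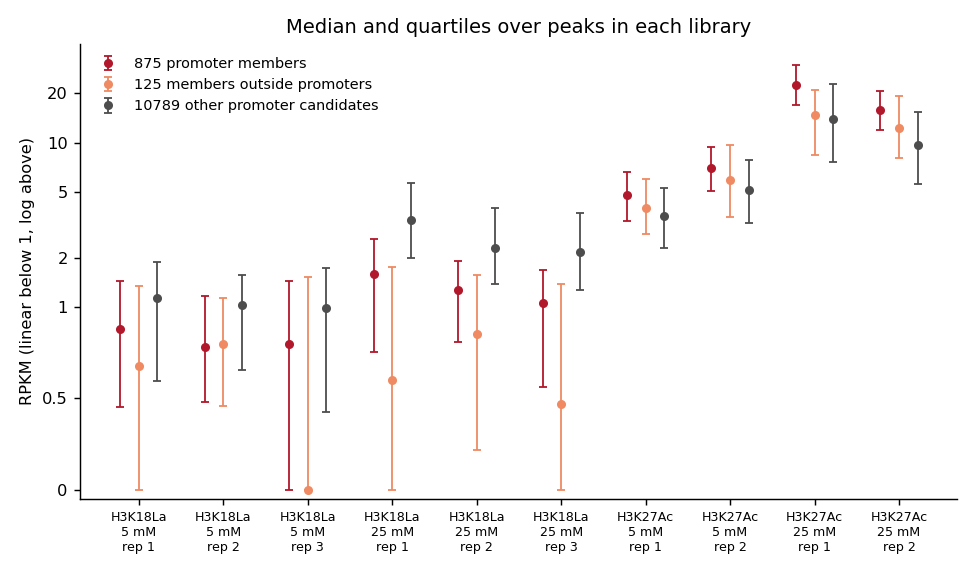
Median RPKM and quartiles over peaks in each of the 10 libraries, on a scale that is linear below 1 and logarithmic above, for 875 promoter members (red), 125 members outside promoters (orange) and 10789 other promoter candidates (grey). The marks separate more at 25 mM, where H3K18La medians of the promoter members stay between 1.05 and 1.58 RPKM and their H3K27Ac medians reach 22.6 and 15.7 RPKM.

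Individual members differed in how lactylation moved. Ndufa3, a complex I subunit gene, had 0.695, 0.283 and 1.08 RPKM of H3K18La at 5 mM and 8.95, 3.25 and 3.95 RPKM at 25 mM, so the glucose groups did not overlap. Its H3K27Ac was 10.5 and 15.3 RPKM at 5 mM and 70.5 and 42.7 RPKM at 25 mM. The intronic Bnip3 peak (chr7:138906563-138907438), in a gene of mitophagy induced by hypoxia, had 2.71, 1.98 and 1.68 RPKM of H3K18La at 5 mM and 1.74, 2.25 and 0.770 RPKM at 25 mM, which overlapped. Its H3K27Ac was 7.92 and 13.1 RPKM at 5 mM and 24.4 and 26.4 RPKM at 25 mM.

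The genes of the promoter members were compared with gene lists. Of 10116 genes with a promoter candidate, 862 had a member there, or 8.52%. The share was highest in genes of the respiratory chain and ATP synthase, 15 of 56 or 26.8%. Among them were Ndufa3, Ndufb2 and Ndufb10 of complex I, Sdha and Sdhd of complex II, Uqcrc2, Uqcrfs1 and Uqcr11 of complex III, Cycs for cytochrome c, Cox7a2 of complex IV, and Atp5b, Atp5j2 and Atp5l of ATP synthase. At 5 mM 13 of the 15 were called with H3K27Ac higher, and the median difference over the 15 was 2.33, near the 81.4% called and the median of 2.31 over all promoter members. Ndufa3, whose values in each library are given above, had a difference of 3.54 ± 0.47 (SE, limma adjusted p = 0.0102). Cycs was not called (difference 1.40 ± 0.48, SE, limma adjusted p = 0.0762).

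Spliceosome genes had 8 of 35, or 22.9%, namely Hnrnpm, Prpf3, Prpf8, Sf3a2, Sf3b1, Sf3b2, Sf3b4 and Snrpc, in addition to the U2af2 peak. The 4 Sf3 genes encode subunits of the SF3a and SF3b complexes of the U2 particle. Cytosolic ribosomal protein genes had 9 of 59, or 15.3%, with Rpl19 and Rps6 highest in H3K27Ac. Rps6 had 0.425, 0.519 and 0.660 RPKM of H3K18La and 5.19 and 7.80 RPKM of H3K27Ac at 5 mM, a difference of 2.74 ± 0.49 (SE, limma adjusted p = 0.0102). The proteasome, with 2 of 23 (Psmb1 and Psmc3), was near the share of all genes.

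Lists of genes that define retinal cell types had no promoter member, where the share over all genes was 8.52%. Most of these lists are short, and at that share a list of 10 candidates would hold fewer than 1 member, so a single 0 lies near it. Members were 0.214% and 2.06% of promoter candidates in the 2 lowest quintiles of H3K27Ac at 25 mM, up to 10.3 RPKM. They were 13.5% and 13.8% in the 2 highest, and the 8.52% takes no account of this. The cone, bipolar, Müller glia, amacrine, ganglion and horizontal lists had median H3K27Ac of 1.87 to 6.98 RPKM. The respiratory chain and spliceosome lists had 16.9 and 14.8 RPKM. List shares at like H3K27Ac were not tested. There were 0 of 23 rod photoreceptor genes with a promoter candidate, 0 of 16 photoreceptor transcription factors, 0 of 19 ribbon synapse genes, 0 of 10 bipolar cell and 0 of 10 Müller glia genes, and also 0 of 21 immediate early and 0 of 22 glucose sensing genes. Cone, amacrine, ganglion, horizontal, endothelial, pigment epithelium, progenitor and gliosis lists likewise had 0, out of 2 to 13 candidates each, and the microglial and Hox lists had no candidate. Rod promoters were acetylated but carried lactylation too: their medians at 25 mM were 41.3 RPKM of H3K27Ac and 9.26 RPKM of H3K18La, and their median ratio was -1.84, against -2.84 in the respiratory chain list. H3K27Ac was the higher mark at 5 mM at 18 of the 23 rod promoters by the limma test, against 5363 of 14154 genes with a promoter peak, and at none after scaling to reads in peaks.

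**Figure D4:**
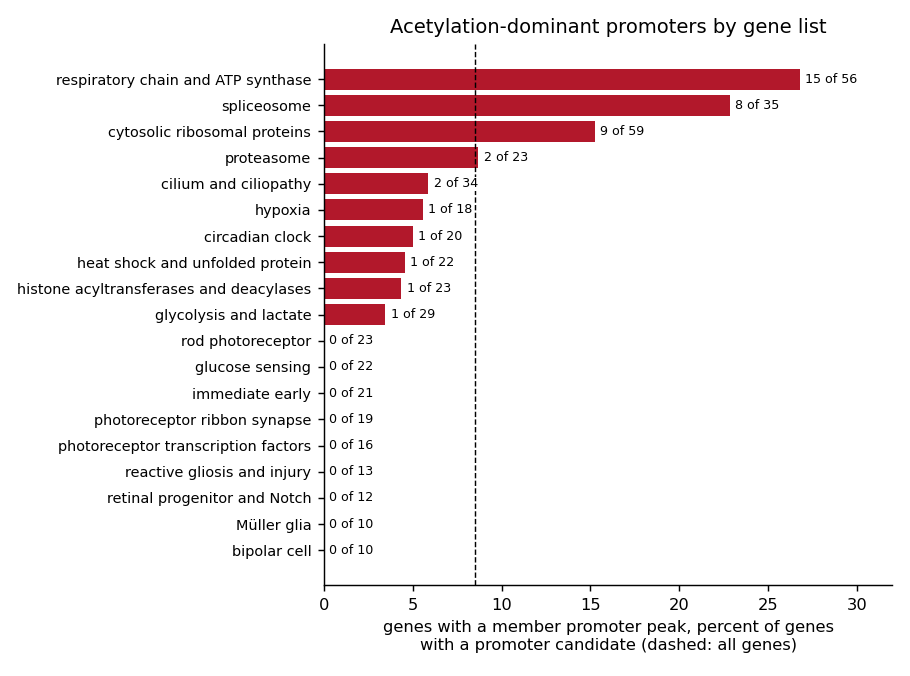
Genes with a member promoter peak as a percent of the genes of each list with a promoter candidate, for lists with at least 10 such genes. The numbers beside the bars give the counts and the dashed line the share over all genes, 8.52%. Respiratory chain, spliceosome and ribosomal protein genes lie to the right of it and photoreceptor lists are at 0.

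The remaining lists held 1 to 3 members each, and their shares of promoters lay under that of all genes, from 1 of 29 for glycolysis to 2 of 34 for cilium and ciliopathy genes. The glycolytic gene Aldoa had a member, but it was the peak at chr7:126797175-126800102, which covers the GENCODE start of the neighbouring gene Fam57b. The other promoter peak of Aldoa, chr7:126808675-126809380, had 3.62 ± 1.24 RPKM of H3K18La (SD, n = 3) and 35.4 ± 1.48 RPKM of H3K27Ac (SD, n = 2) at 25 mM and lay just outside the rule with a ratio of -3.12. Nr2e3, a transcription factor gene of rods, had an intronic member (chr9:59947753-59948327) with 6.19, 5.99 and 2.35 RPKM of H3K18La and 56.8 and 38.7 RPKM of H3K27Ac at 25 mM. The promoter peak next to it (chr9:59948856-59953561) had about the same H3K27Ac, 49.1 ± 16 RPKM (SD, n = 2), with 15.3 ± 5 RPKM of H3K18La (SD, n = 3) and a ratio of -1.65. Sirt3, the mitochondrial deacylase gene, whose peak also covers the start of Psmd13, Kdm4b, a histone demethylase gene, Hsp90b1, a chaperone gene of the endoplasmic reticulum, Ciart, a clock repressor gene, and the ciliopathy genes Cep290 and Bbs10 had promoter members, and Bbs7 had an intronic one with 0 H3K18La reads at 25 mM and H3K27Ac at least 10.2-fold higher than the floor of 3 reads. All of these but Nr2e3 had mean H3K18La levels under 4 RPKM at 25 mM.

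Gene symbols that share a stem were counted in families chosen after the values were seen, with no test. Mitochondrial ribosomal proteins (Mrpl, Mrps) had 14 of 57, or 24.6%, and zinc finger genes (Zfp) 42 of 277, or 15.2%. Mitochondrial carriers (Slc25a) had 5 of 24, translation initiation factors (Eif) 7 of 38, RNA polymerase subunits (Polr) 4 of 22, Mediator subunits (Med) 4 of 23, TFIID subunits (Taf) 2 of 13 and the anaphase-promoting complex (Anapc) 2 of 7. Shares near or under the 8.52% of all genes, also on small counts, were found in other families: proteasome genes by stem (Psm) had 2 of 33, ubiquitin-conjugating enzymes (Ube2) 2 of 25, tRNA synthetases 2 of 27 and the exosome (Exosc) 0 of 5. Solute carriers (Slc), the mitochondrial carriers included, had 10 of 151. Potassium channels (Kcn) had 0 of 26 and glutamate and GABA receptors 0 of 13.

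Promoter members shared features of sequence and position that the rule did not use. They were compared with the 10789 other promoter candidates, as a description. The median width was 1017 bp against 1211 bp. The GC content of the central 300 bases was the same, 62.7% in both, while the observed to expected CpG ratio was 0.83 against 0.73, and 82.3% against 60.9% were CpG-island-like, with a GC content above 50% and a CpG ratio above 0.6. GENCODE gene starts on both strands lay in or within 500 bp of 32.2% of the promoter members and of 15.0% of the others, counting coding genes and long non-coding and antisense RNAs. They also stood more alone: the nearest other peak was a median of 9918 bp away, against 5377 bp, and within 2 kb in 10.6%, against 27.2%. Yet they lay where genes were dense, with a median of 22 coding start sites within 500 kb on either side, against 15.

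**Figure D5:**
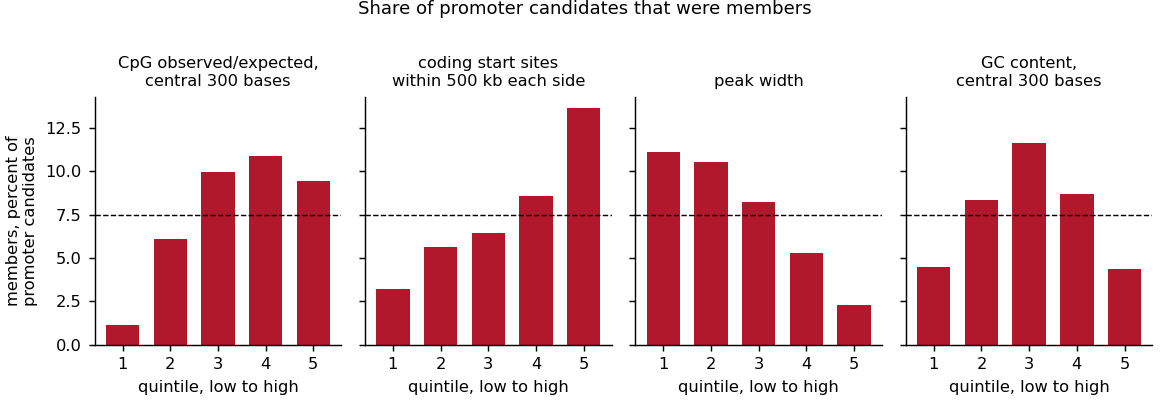
Members as a percent of the 11664 promoter candidates in quintiles of 4 features, from low to high; the dashed line is the share over all promoter candidates. From the lowest to the highest quintile the share goes from 3.21% to 13.6% for gene density and from 11.1% to 2.31% for peak width. It is 1.16% in the lowest quintile of the CpG ratio, and is highest in the middle quintile of GC content, 11.6%.

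The share of members among promoter candidates was higher where genes were denser, from 3.21% in the lowest quintile to 13.6% in the highest, and at higher CpG ratios, from 1.16% in the lowest quintile to 10.9% in the fourth and 9.43% in the highest. It was lower in wider peaks, from 11.1% in the lowest quintile to 2.31% in the highest. With GC content it was 4.46% in the lowest quintile, 11.6% in the middle and 4.37% in the highest. Narrow peaks hold fewer reads, and their part in the choice of members was not tested. The median mark difference at 5 mM was larger in members than in other promoter candidates in every quintile of these 4 features, by 0.40 to 1.07. Among promoters of like H3K27Ac the gap was 0.20 to 0.43 within quintiles of H3K27Ac at 25 mM. Within quintiles of H3K27Ac at 5 mM, which is itself a term of the difference, it was 0.33 to 0.64. Both ranges start lower than that of the 4 features and overlap it. In the highest quintile at 25 mM 96.6% of members and 90.2% of the others were called, in the fourth 85.4% and 77.1%, and in the lowest, which held 5 members, 0% and 3.74%.

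Short motifs were counted in the central 300 bases on both strands. The ETS core CCGGAA, bound by factors such as GABPA and ELF1, was present in 326 of 875 promoter members, or 37.3%, against 18.6% of the other promoter candidates and 16.1% of all promoter peaks. Among CpG-island-like promoters alone the shares were 41.5% and 25.0%. The Dot1l, Tbce and Sgta stretches above hold it. The YY1 motif AAGATGGC was in 6.86% against 3.39%, the NRF1 motif GCGCATGC in 5.03% against 2.77%, and the CCAAT box in 31.9% against 26.8%. Over all promoter peaks these 3 shares were 2.98%, 2.37% and 27.6%. The GC box GGGCGG was in 60.7% against 51.6%, but among CpG-island-like promoters in 66.7% against 71.5%, and in 44.8% of all promoter peaks.

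Motifs of neuronal and activity-dependent factors differed in both directions. The CRE motif TGACGTCA, bound by CREB, was in 2.86% of promoter members against 1.68% of the other promoter candidates and 1.35% of all promoter peaks, and in 3.33% against 2.31% among CpG-island-like promoters. The AP-1 motif TGANTCA was in 2.63% of promoter members against 4.60%, the E-box CAGATG in 8.23% against 14.0%, and the CRX and OTX2 motif TAATCC in 6.40% against 6.85%. Over all promoter peaks the AP-1, E-box and CRX shares were 5.02%, 15.6% and 6.95%. Among CpG-island-like promoters they were 2.22% against 2.80%, 7.22% against 8.66%, and 5.28% against 3.104%. Over whole peaks, the ETS core was in 68.0% of promoter members and 46.1% of the other promoter candidates. The CCAAT box went the other way over whole peaks, in 68.7% against 70.9%. The YY1, NRF1 and GC box motifs did not, in 13.6% against 10.3%, 11.4% against 7.54% and 85.0% against 77.4%. A match describes letters in the window and not binding.

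The opposite extreme was of another kind. The 1000 autosomal peaks with the highest ratio among those with at least 3 RPKM of H3K18La at 25 mM included 35 promoters and 579 intergenic peaks, against 875 and 16 among the acetylation-dominant peaks. Their median CpG ratio was 0.15 and their median gene density 5 coding starts within 500 kb on either side, against 0.80 and 23. An ETS core was in 2.5% of them. Their nearest other peak was a median of 1532 bp away, against 8306.5 bp.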

How the data were processed

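CUT&Tag libraries of H3K18La and H3K27Ac from retinal explants were grouped by the mark and glucose level in their labels. The authors aligned reads to GRCm38, called peaks with MACS, annotated them with ChIPseeker 1.34.1 and counted reads over one peak set. Its size is the number that the paper gives for merged H3K18La peaks of developing and mature retina. Shares over all peaks and distances to the nearest peak hold for this set only. The authors deposited RPKM values of 108253 peaks, and a table of their own glucose test of H3K18La, log2 fold changes with p-values, which was not used. Promoters lay from -1000 to 500 bp of a start site.

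The RPKM values in the deposited table were whole multiples of 1 read (100% within a tolerance of 0.05 reads), so reads and library totals of 1358008 to 7424470 were recovered. Whether the totals include normalization factors is not given in the sources used here. Replicates differed by more than counting noise and were kept apart (closest pair: chi-square per degree of freedom 1.04, p = 1.22e-05).

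The marks were compared at 5 mM with limma 3.58.1 in R 4.3.3, using lmFit and eBayes with trend and robust weights on log2(RPKM + 0.5). P-values were adjusted by Benjamini-Hochberg across the whole peak set, with 0.05 as the threshold. On this scale the change of weak peaks is understated. The deposited unit is RPKM, so a linear model took the place of the count test in the methods of the study, and voom on the recovered reads was an alternative. On simulated data for the mark difference at 5 mM, with 200 of 108253 peaks changed, the sign of 200 was recovered, 0 were called by the robust fit and 101 by voom, with 11 others called. Other alternatives were the pseudocount, a minimum RPKM, scaling, GC, a replicate block, the threshold and each library left out.

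Sequence features and motifs were taken from the GRCm38 reference over the central 300 bases of a peak, and gene starts from GENCODE M21. Python 3.11.15 with numpy 2.4.6, pandas 2.3.3, scipy 1.17.1 and matplotlib 3.10.9 was used. A gene's promoter peak in a list was the one with the highest RPKM, averaged over the 10 libraries. Named members were the 12 with the lowest ratio, 1 a gene, the 5 promoter and 5 other called members with the largest excess of H3K27Ac at 5 mM and separated marks, up to 4 of each gene list, 3 on each side of the rule's limit, and the 5 genes with most members. A further member fixed by this rule is not reported here. A list of replication histone genes matched no symbol with a promoter peak. The members and lists were chosen with earlier results of these data known.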

Additional observations from a re-analysis of the deposited data

How the results depend on the processing

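Of the 1000 members, 787 were called with H3K27Ac higher at 5 mM, and under each alternative 0 were called with H3K18La higher. The count of members called and of all peaks called (12392) became 442 and 6218 with a pseudocount of 0.1, 256 and 2006 when libraries were centred on their medians, 0 and 0 with ordinary moderation, with scaling to reads in peaks, with the GC trend removed and at a threshold of 0.01. In fits added after the data were seen, candidates alone gave 0 and 0 both with scaling to reads in peaks and with the GC trend removed (592 and 533 members at an unadjusted p under 0.05), and voom with reads in peaks as library size gave 569 and 6530. Candidates alone with no further change gave 913 and 17779, and voom on the recovered reads gave 924 and 20153. With 1 library left out, the counts ranged from 0 to 806 members and from 0 to 12065 peaks; a mark left with 1 library was assumed to vary like the other. The cause of these losses was not tested. The replicate block gave 804 and 11204. Libraries with the same number did not deviate together (correlation -0.01 for each number). With a median of 1 to 4 H3K18La reads per peak at 5 mM, this cannot show whether the numbers pair the libraries.

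The median over members minus that of all peaks tested, 1.76, lay between 0.71 and 2.25 in these fits. The 60 named peaks kept their direction in every fit they entered, but the 50 called among them all lost the call in each fit with 0 calls, 25 with centring on medians, 15 with a pseudocount of 0.1 and 11 with voom on reads in peaks. Of the 1000 members, the rule kept 177 with the 5 mM libraries, 608 to 815 with 1 library left out, and 765 to 1000 under the other settings, 765 with a pseudocount of 0.1. Promoters made up 55.2% of the peaks chosen at 5 mM and 73.0% to 91.3% with 1 library left out. At a median of 11 H3K18La reads per member at 25 mM, the order of single members is uncertain.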
